A study of Mus musculus with 354 samples.

Results

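The collagen genes were examined in single GFP+ cells sorted from the cochleae of P3 mouse pups, in which a constitutively active ERBB2 (CA-ERBB2) was or was not induced. Members were taken as every gene symbol made of Col, a number, the letter a and a number, and 44 of the 55367 genes in the count tables had such a symbol. All 44 had at least 1 count. They were sorted by the molecule each chain builds into 6 major fibrillar genes (types I, III and V), 6 genes of cartilage and the tectorial membrane (types II, IX and XI), 9 basement membrane genes, 6 *Col6* genes, 6 other fibril-associated genes, 4 transmembrane genes and 7 short-chain and other genes.

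Each of the 354 samples was 1 well, taken as 1 cell, with 177 cells of each genotype, in 3 plates of 59 wells. The plate number given in the sample names was taken as the replicate, so that the genotypes were compared as 3 plates against 3, and cells of a plate were not counted as replicates. Pups of both genotypes carried *Fgfr3-iCre* together with the reporter and activator allele *ROSA-floxed-rtTA/GFP*. CA-ERBB2 pups also carried the transgene *TetON-CAERBB2*, which their Control littermates lacked. Tamoxifen at 75 mg/kg at P0 and P1 activated the iCre, and doxycycline at 100 mg/kg at P2 induced the transgene. The protocol gives both injections without naming a genotype, and the treatment label itself is present for CA-ERBB2 cells and absent for Control cells. GFP marks cells in which iCre, driven by *Fgfr3*, was active, and cells of several pups of a genotype were sorted into each plate.

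Collagens are proteins of the extracellular matrix built of 3 chains wound into a triple helix, and some types require chains from different genes in 1 molecule. Type I, III and V chains form the fibrils of connective tissue and bone. Type II fibrils with type XI inside and type IX on their surface make up cartilage, and in the cochlea the same chains form the fibrils of the tectorial membrane, the acellular sheet above the hair cells. Type IV forms the network of basement membranes under epithelia, and type VI forms beaded filaments around cells of connective tissue.

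Plate totals lay between 108357282 and 188636940 counts and cell totals between 1443 and 5178221 counts, with 35 cells under 100000 counts. Cells of the plates numbered 1 had a median of 10198 genes with a count in CA-ERBB2 and 8679 in Control, and cells of the other plates between 1742 and 2954. On each plate the 4 wells A12 to D12 stood apart, with a median between 13145.5 and 17397 genes against 1216 to 10095 in the other wells. Whether these wells held 1 cell each was not tested. They were kept unless stated, and values without them are given beside the results where they moved most. *Erbb2* had 106, 46.05 and 119.6 CPM (counts per 1000000, scaled with TMM factors) on the CA-ERBB2 plates and 19.8, 3.24 and 12.4 CPM on the Control plates (adjusted p = 0.774 in edgeR's quasi-likelihood test). The cells were labelled as cochlear supporting cells (SCs). All 10 markers of Deiters and pillar cells had counts. Sums over marker lists and CPM of single cells, here and below, are without TMM factors. The markers of Deiters and pillar cells summed to between 1667 and 4240 CPM per plate. The 10 markers of otic mesenchyme and fibroblasts summed to between 4718 and 16453 CPM. Of the latter sum, *Otor* alone made up between 2525 and 14469 CPM, the largest part on every plate. The 7 epithelial markers summed to between 500 and 1749 CPM, and no marker of these 3 lists was at 0 over all cells. In sums over a plate, fewer cells of a type and less RNA per cell cannot be told apart.

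The collagens together took 2.07, 0.823 and 0.821% of all counts in CA-ERBB2 and 2.52, 0.965 and 1.26% in Control, given here and below in the order of plates 1, 2 and 3. The largest share was found on plate 1 in both genotypes. To order the genes, CPM were divided by the length in kilobases of each gene's merged exons and averaged over the 6 plates. *Col2a1*, the chain of type II, had the highest level per kilobase at 353, followed by the type IX chains *Col9a1* at 337 and *Col9a3* at 227, by *Col1a2* of type I at 187, and by *Col9a2* at 142. Then came *Col3a1* at 90.4, *Col1a1* at 68.2, *Col11a2* at 55.0, *Col11a1* at 45.4 and *Col6a1* at 39.6. Many neighbours in this order could not be separated by plate. *Col2a1* was above *Col9a1* on 3 of 6 plates and *Col1a1* was above *Col11a2* on 3 of 6, while each of *Col9a1*, *Col9a3* and *Col1a2* was above the next gene on 5 of 6. When the longest transcript of each gene was used as its length, 9 of the first 10 genes stayed among the first 10, and *Col26a1* took the place of *Col6a1*.

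**Figure D1:**
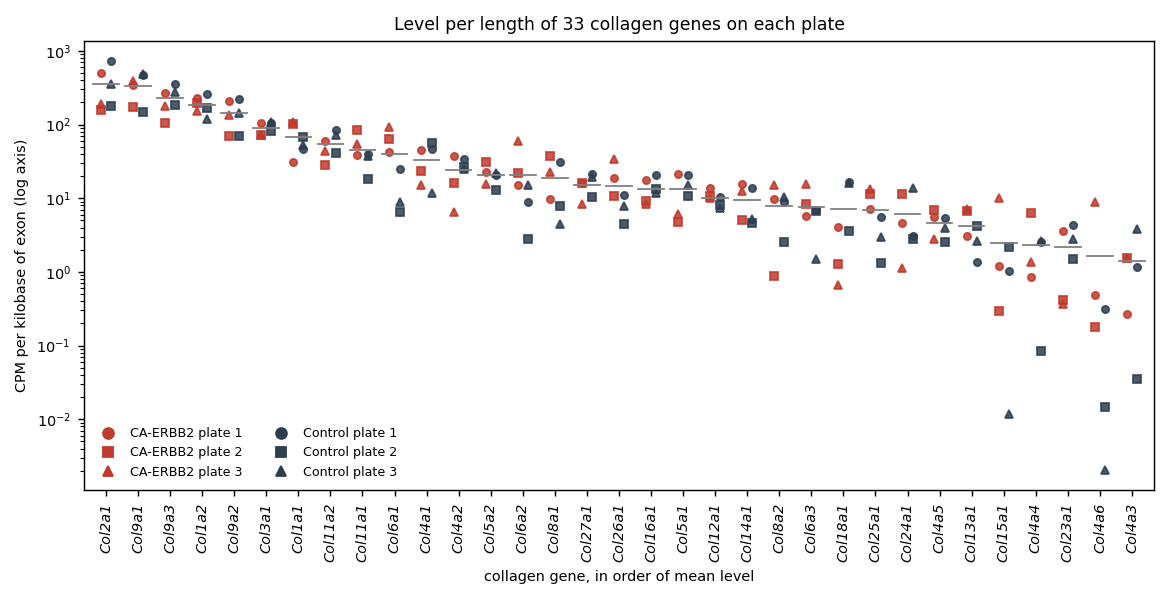
Level per length of the 33 collagens with a mean of at least 10 CPM, as CPM per kilobase of exon on a log axis, in the order of their mean (grey line), with 1 marker for each of the 3 CA-ERBB2 and 3 Control plates. The mean falls from 353 for *Col2a1* to 1.39 for *Col4a3*, the markers of the genotypes lie over each other for most genes, and those of CA-ERBB2 lie above those of Control for *Col6a1* and *Col25a1*.

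The cartilage and tectorial membrane collagens made up the largest group. Their summed level was 8999, 4237 and 5870.3 CPM in CA-ERBB2 and 12220.3, 3846 and 8270.2 CPM in Control. The means were 6369 ± 2420 and 8112 ± 4189 CPM (SD, n = 3 plates each), and the plates of the genotypes overlapped. *Col2a1* (chromosome 15 of GRCm38, 97975602 to 98004695) had 4663, 1471 and 1772 CPM in CA-ERBB2 cells and 6714, 1641 and 3325 CPM in Control cells. It was highest on plate 1 in both genotypes. *Col9a1* (chromosome 1, 24177610 to 24252684) had 1763, 872 and 2002 CPM in CA-ERBB2 cells and 2367, 757 and 2479 CPM in Control cells, and *Col9a2* 647, 220.1 and 417 against 691, 219 and 441 CPM. *Col9a3*, the remaining chain of type IX, had 1023, 405 and 682 against 1364, 716 and 1056 CPM. In all 3 type IX genes, plate 2 was the lowest plate of each genotype. *Col11a2* had 407, 197 and 302 CPM in CA-ERBB2 cells and 581, 282 and 498 CPM in Control cells. *Col11a1*, which with *Col11a2* sets the thickness of type II fibrils, had 496, 1072 and 696 CPM against 503, 231 and 471 CPM. *Col11a1* was the only gene of this group with a positive log2 fold change, of 0.91 (SE 0.522), against values between -0.59 and -0.07 for the other 5. By the quasi-likelihood test of edgeR none of the 6 reached an unadjusted p of 0.05, and the adjusted p of *Col11a1* was 0.914. Without both plates numbered 1, its log2 fold change was 1.34, at an unadjusted p of 0.0415.

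The major fibrillar collagens summed to 4467, 4199 and 3484 CPM on the CA-ERBB2 plates and to 4934, 3572 and 3217 CPM on the Control plates. The plates of the genotypes overlapped. *Col1a2* (chromosome 6, 4504814 to 4541544) had 2833, 2473 and 1872 CPM in CA-ERBB2 cells and 3199, 2113 and 1463 CPM in Control cells. *Col1a1*, whose chain joins type I molecules in excess over that of *Col1a2*, had 207, 679 and 702 CPM against 307, 447 and 345 CPM. *Col3a1*, the single chain of type III, had 1024, 704 and 702 CPM against 1036, 791 and 1069 CPM. The ranges of the genotypes overlapped in all 3 genes. Of the type V chains, which start fibrils of type I, *Col5a1* had 182, 39.9 and 52.0 CPM in CA-ERBB2 cells and 177, 90.7 and 129 CPM in Control cells. *Col5a2* had 217, 301 and 148 CPM against 199.8, 126 and 212 CPM. *Col5a3* stayed between 0.0248 and 14.4 CPM on all plates. The log2 fold changes of the 6 genes lay between -0.53 and 0.53 with standard errors of 0.457 to 1.54.

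Of the basement membrane collagens, *Col4a1* and *Col4a2*, which build the type IV network common to most basement membranes, had the highest levels. *Col4a1* (chromosome 8, 11198423 to 11312826) had 341, 173 and 115 CPM in CA-ERBB2 cells and 346, 414 and 88.7 CPM in Control cells. *Col4a2* (chromosome 8, 11312805 to 11449287) had 251, 105 and 42.6 CPM against 224, 177 and 166 CPM. In the annotation the genes run in opposite directions and overlap by 22 bases at their starts, so reads of these bases can be assigned by strand only. The sequences of both promoters, from 250 bases before to 50 bases after the start in RefSeq (GRCm38.p6), are shown because 1 stretch of 78 bases belongs to both windows and because these chains were found together in cells, as described further on. Capitals mark CCAAT and GGGCGG on either strand, of which the first occurred in 37.4% and the second in 35.7% of all 32851 promoter windows.
Col4a1 (chr8:11312777-11313076, minus strand): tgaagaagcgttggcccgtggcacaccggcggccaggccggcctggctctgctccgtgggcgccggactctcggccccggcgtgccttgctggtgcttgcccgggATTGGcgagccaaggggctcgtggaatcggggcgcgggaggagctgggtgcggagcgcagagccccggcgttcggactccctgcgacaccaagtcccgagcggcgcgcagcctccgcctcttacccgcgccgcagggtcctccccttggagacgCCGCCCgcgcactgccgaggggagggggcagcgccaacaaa
Col4a2 (chr8:11312555-11312854, plus strand): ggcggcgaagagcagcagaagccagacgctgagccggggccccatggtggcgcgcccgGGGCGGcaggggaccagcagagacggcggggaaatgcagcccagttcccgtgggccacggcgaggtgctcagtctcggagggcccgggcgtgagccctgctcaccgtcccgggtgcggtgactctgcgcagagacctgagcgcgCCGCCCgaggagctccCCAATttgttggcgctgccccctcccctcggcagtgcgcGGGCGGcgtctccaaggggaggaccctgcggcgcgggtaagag
The window of *Col4a1* held 1 CCAAT and 1 GGGCGG, and that of *Col4a2* held 1 CCAAT and 3 GGGCGG. Their GC content was 74.0 and 73.7%, where the median of all windows was 52.7%.

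*Col4a3*, *Col4a4* and *Col4a5* form the type IV network that is known from the kidney and the inner ear and is altered in Alport syndrome. *Col4a3* had 2.71, 15.3 and 15.3 CPM in CA-ERBB2 cells and 11.8, 0.353 and 37.8 CPM in Control cells. *Col4a4* had 9.05, 66.2 and 14.6 CPM against 27.3, 0.907 and 28.0 CPM. Both were at under 1 CPM on Control plate 2, and on the other plates they showed no order by genotype. *Col4a4* (chromosome 1, 82448423 to 82586849) and *Col4a3* (chromosome 1, 82586921 to 82722059) also start head to head, with 71 bases between them. The RefSeq window of *Col4a4* is shown because 179 of its 300 bases lie inside *Col4a3*, and it holds none of the motifs searched, which were TATAAA (the TATA box), CCAAT (the CCAAT box), GGGCGG (the GC box) and TGACTCA (the AP-1 site).
Col4a4 (chr1:82586800-82587099, minus strand): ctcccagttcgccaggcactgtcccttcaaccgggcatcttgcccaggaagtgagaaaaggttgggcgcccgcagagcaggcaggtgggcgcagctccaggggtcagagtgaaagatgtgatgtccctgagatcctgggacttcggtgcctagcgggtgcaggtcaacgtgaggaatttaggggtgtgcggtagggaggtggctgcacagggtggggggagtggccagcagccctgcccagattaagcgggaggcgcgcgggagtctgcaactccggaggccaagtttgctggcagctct
*Col4a5* had 38.0, 47.2 and 18.5 CPM against 35.8, 17.2 and 26.8 CPM. *Col4a6*, its partner in a further type IV molecule, had 3.93, 1.44 and 70.9 CPM against 2.53, 0.118 and 0.0165 CPM. A single cell, in well B3 of CA-ERBB2 plate 3, held 78.5% of all counts of *Col4a6*, so its log2 fold change of 4.83 (SE 1.95, unadjusted p = 0.0319 in edgeR's test) rests on that cell, and it was 1.62 without that plate. *Col4a5* and *Col4a6* lie 1308 bases apart on chromosome X. TATAAA was found in 13.6% and TGACTCA in 5.2% of all promoter windows.

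*Col15a1* and *Col18a1* encode proteoglycans of basement membranes, and *Col7a1* forms the anchoring fibrils beneath epithelia. *Col15a1* had 7.66, 1.87 and 63.6 CPM in CA-ERBB2 cells and 6.61, 13.7 and 0.0744 CPM in Control cells. Of its counts, 41.8% were in 1 cell of CA-ERBB2 plate 3. *Col18a1* (chromosome 10, 77052178 to 77166548) had 28.6, 9.08 and 4.68 CPM on the CA-ERBB2 plates and 115, 25.4 and 115 CPM on the Control plates. CA-ERBB2 plate 1 was above Control plate 2, and the other CA-ERBB2 plates were below all Control plates. Its log2 fold change was -2.59 (SE 0.842, unadjusted p = 0.0112, adjusted p = 0.911 in edgeR's quasi-likelihood test), the only collagen with a lower level in CA-ERBB2 cells at an unadjusted p under 0.05. With cells of at least 100000 counts and under 20% mitochondrial counts it was -1.71, at an unadjusted p of 0.0601. The counts of *Col18a1* were uneven over cells, with 22% of them in well B10 of Control plate 1, and cells with at least 100 CPM numbered 8 in CA-ERBB2 and 21 in Control. *Col7a1* stayed between 0.111 and 11.2 CPM.

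The *Col6* genes differed most between the genotypes as a group. Summed over the 6 genes, the level was 391, 563 and 1092 CPM in CA-ERBB2 and 271, 137 and 183 CPM in Control, and every CA-ERBB2 plate was above every Control plate. The log2 ratio of the means was 1.79, and it lay between 1.22 and 2.37 in the other settings tried. *Col6a1* (chromosome 10, 76708792 to 76726168), the chain named α1 of type VI, had 188, 275 and 401 CPM in CA-ERBB2 cells and 109, 28.1 and 38.7 CPM in Control cells. The means were 288 ± 107 and 58.5 ± 43.8 CPM (SD, n = 3 plates each), and the lowest CA-ERBB2 plate was above the highest Control plate. The log2 fold change was 2.30 (SE 0.632), with an unadjusted p of 0.00422 and an adjusted p of 0.806 over the 21416 genes tested in edgeR's quasi-likelihood test. The log2 fold change was between 1.70 and 3.35 in every alternative run, and the unadjusted p stayed under 0.05 in all of them except limma on mean log2 values over cells, where it was 0.25.

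*Col6a2* (chromosome 10, 76595762 to 76623630) had 125, 186 and 500.1 CPM in CA-ERBB2 cells and 74.4, 23.2 and 126 CPM in Control cells. Control plate 3 lay just above CA-ERBB2 plate 1, so the plates overlapped. Its log2 fold change was 1.86 (SE 0.728, unadjusted p = 0.0279, adjusted p = 0.911 in edgeR's test), and 1.07 at an unadjusted p of 0.159 without CA-ERBB2 plate 3. Without Control plate 1 and without Control plate 2 the unadjusted p was 0.0673 and 0.0836 in edgeR's test, and without wells A12 to D12 it was 0.0546. *Col6a3*, which encodes the large α3 chain, had 69.8, 100.4 and 187 CPM in CA-ERBB2 cells and 82.8, 81.6 and 17.9 CPM in Control cells. The ranges overlapped, and the log2 fold change of 0.97 (SE 0.665) had an unadjusted p of 0.175 in edgeR's test. The alternatives to *Col6a3* were rare, with *Col6a6* at up to 7.88 CPM, *Col6a4* at up to 3.6 CPM and *Col6a5* at up to 0.0252 CPM.

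*Col6a2* and *Col6a1* lie one behind the other on the minus strand, 85161 bases apart. Their RefSeq promoter windows (GRCm38.p6) are shown since these were the chains with the largest differences among collagens of at least 100 CPM. Capitals mark matches to any of the 4 motifs on either strand.
Col6a1 (chr10:76725995-76726294, minus strand): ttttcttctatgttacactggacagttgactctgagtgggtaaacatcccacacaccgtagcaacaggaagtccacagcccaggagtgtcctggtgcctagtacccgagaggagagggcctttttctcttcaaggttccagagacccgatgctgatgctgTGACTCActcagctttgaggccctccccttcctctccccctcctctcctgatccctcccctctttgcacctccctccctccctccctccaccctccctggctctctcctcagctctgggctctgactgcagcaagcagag
Col6a2 (chr10:76623581-76623880, minus strand): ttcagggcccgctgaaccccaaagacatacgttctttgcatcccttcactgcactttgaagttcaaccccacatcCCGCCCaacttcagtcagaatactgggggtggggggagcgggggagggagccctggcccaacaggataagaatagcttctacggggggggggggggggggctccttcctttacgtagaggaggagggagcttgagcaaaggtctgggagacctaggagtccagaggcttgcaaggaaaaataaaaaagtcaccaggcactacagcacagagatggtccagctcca
The window of *Col6a1* held 1 TGACTCA, the sequence bound by AP-1 factors, and was the only one of the 38 windows of 35 collagens with it. The window of *Col6a2* shown held 1 GGGCGG, and a second RefSeq window of this gene (chr10:76623355-76623654, minus strand) held 3. Over the 38 collagen windows, GGGCGG was found in 60.5%, CCAAT in 34.2% and TATAAA in 13.2%, and their median GC content was 59.8%.

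The transmembrane collagens summed to 126, 182 and 206 CPM on the CA-ERBB2 plates and to 104, 45.4 and 67.0 CPM on the Control plates, and the plates did not overlap. On every plate except Control plate 2 the largest part came from *Col25a1*, which spans the membrane of the cell that makes it. *Col25a1* (chromosome 3, 130131501 to 130599877) had 91.2, 148 and 171 CPM against 72.2, 17.1 and 38.9 CPM. Every CA-ERBB2 plate was above every Control plate, and the log2 fold change was 1.68 (SE 0.615, unadjusted p = 0.0206, adjusted p = 0.911 in edgeR's test). With Control plate 2 left out the unadjusted p was 0.074, and with Control plate 3 left out it was 0.0541. *Col13a1* (chromosome 10, 61838236 to 61979108) had 14.3, 30.9 and 32.8 CPM against 6.30, 19.6 and 12.1 CPM, and CA-ERBB2 plate 1 lay below Control plate 2. Its chain is known from the junctions of nerve and muscle. *Col23a1* had 20.6, 2.40 and 2.11 CPM against 25.2, 8.65 and 15.9 CPM. *Col17a1*, a chain of the hemidesmosomes of skin, was at most at 0.942 CPM.

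Among the short-chain and other collagens, *Col8a1* and *Col8a2* form the hexagonal networks of type VIII. *Col8a1* had 75.9, 292 and 179.7 CPM in CA-ERBB2 cells and 247, 61.3 and 35.5 CPM in Control cells. *Col8a2* had 44.4, 3.99 and 67.9 CPM against 39.4, 11.6 and 46.9 CPM. Neither showed an order of the genotypes. The fibrillar chains *Col24a1* and *Col27a1*, which are known from developing bone and cartilage, also overlapped between the genotypes. *Col24a1* had 34.97, 88.3 and 8.64 CPM against 23.7, 21.6 and 106 CPM. *Col27a1* had 212, 209 and 110.1 CPM against 278, 134 and 253 CPM. *Col26a1* (chromosome 5, 136741759 to 136883209) was higher in CA-ERBB2 cells, with 153, 87.5 and 280.4 CPM against 90.2, 36.5 and 64.7 CPM, although Control plate 1 lay above CA-ERBB2 plate 2. Its log2 fold change of 1.44 (SE 0.588) had an unadjusted p of 0.033 and an adjusted p of 0.911 in edgeR's test, and the unadjusted p was 0.0504 without CA-ERBB2 plate 1, 0.147 without CA-ERBB2 plate 3, 0.12 without Control plate 2 and 0.07 without Control plate 3.

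*Col10a1*, the collagen of hypertrophic cartilage, had 0.188, 0.0458 and 16.8 CPM on the CA-ERBB2 plates and 0.202, 0 and 0 CPM on the Control plates. One cell, in well D3 of CA-ERBB2 plate 3, held 83.9% of its counts, and the log2 fold change was 0.80 without that plate, so its unadjusted p of 0.0446 in edgeR's test rests on that cell. *Col28a1* was between 0.00827 and 4.83 CPM. The other fibril-associated collagens, which coat the surface of fibrils, overlapped between the genotypes as a sum (439, 269.7 and 303 against 401, 256 and 243 CPM). *Col12a1* had 207, 163 and 151 CPM in CA-ERBB2 cells and 156, 122 and 112 CPM in Control cells. *Col16a1* had 118, 62.9 and 56.2 CPM against 142, 89.2 and 79.7 CPM, and *Col14a1* had 110.4, 35.1 and 88.3 CPM against 96.2, 31.9 and 36.5 CPM. In these 3 genes plate 1 was the highest plate of each genotype. *Col22a1* was between 1.78 and 14.1 CPM, *Col19a1* between 0.612 and 3.56 CPM and *Col20a1* between 0 and 1.75 CPM.

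**Figure D2:**
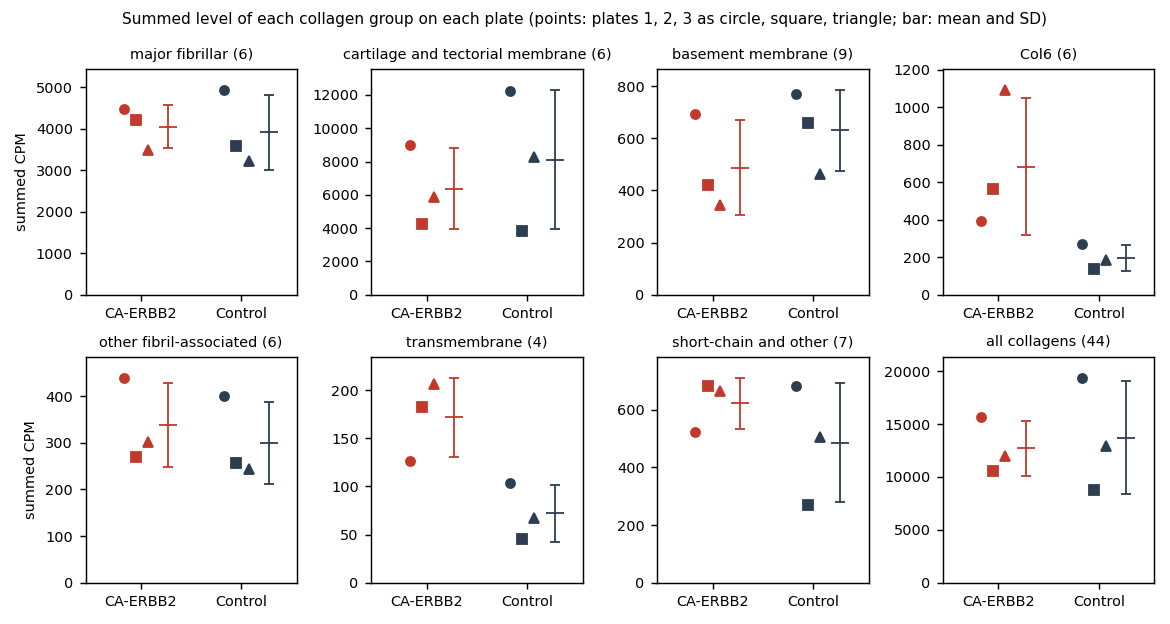
Summed level of each collagen group in TMM-scaled CPM (axes start at 0), with 1 point per plate, the mean as a line and the SD over 3 plates as the error bar, for CA-ERBB2 and Control. The *Col6* and transmembrane panels are those in which the 3 CA-ERBB2 plates lie above the 3 Control plates, with means of 682 against 197 and 172 against 72.0 CPM.

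No collagen was called as a DEG between the genotypes. Of the 42 collagens that passed the filter on low counts (*Col17a1* and *Col6a5* did not), 0 reached an adjusted p under 0.05 together with a log2 fold change beyond 1 or -1 by the quasi-likelihood test of edgeR, where 0.00467% of the 21416 genes tested did. DESeq2 and limma also called 0 collagens. At an unadjusted p under 0.05 there were 6 higher collagens (*Col6a1*, *Col25a1*, *Col6a2*, *Col4a6*, *Col26a1* and *Col10a1*) and 1 lower collagen (*Col18a1*), where 2.77% of all genes tested were higher and 2.39% lower at this p. The count of 7 was 5 by DESeq2 and 0 by limma, and 4 without wells A12 to D12. It was 3 without CA-ERBB2 plate 3, 2 without Control plate 2 and 4 without Control plate 3. The median log2 fold change of the 42 genes was 0.11, with 23 above 0, beside a median of -0.02 with 49.2% above 0 over all genes tested. Every CA-ERBB2 plate was above every Control plate in 2 collagens (*Col6a1* and *Col25a1*), where this held for 4.2% of all genes, and every CA-ERBB2 plate was below in 0 collagens, where this held for 4.88%. Without the TMM factors the median log2 ratio of all genes moved by -0.249. The separated collagens were then 3 higher and 1 lower, with no share over all genes taken for that scaling. With that scaling and with the mean over cells of CPM the sum of the major fibrillar collagens changed from a log2 ratio of 0.05 to -0.22 and -0.07, so no direction can be given for it.

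**Figure D3:**
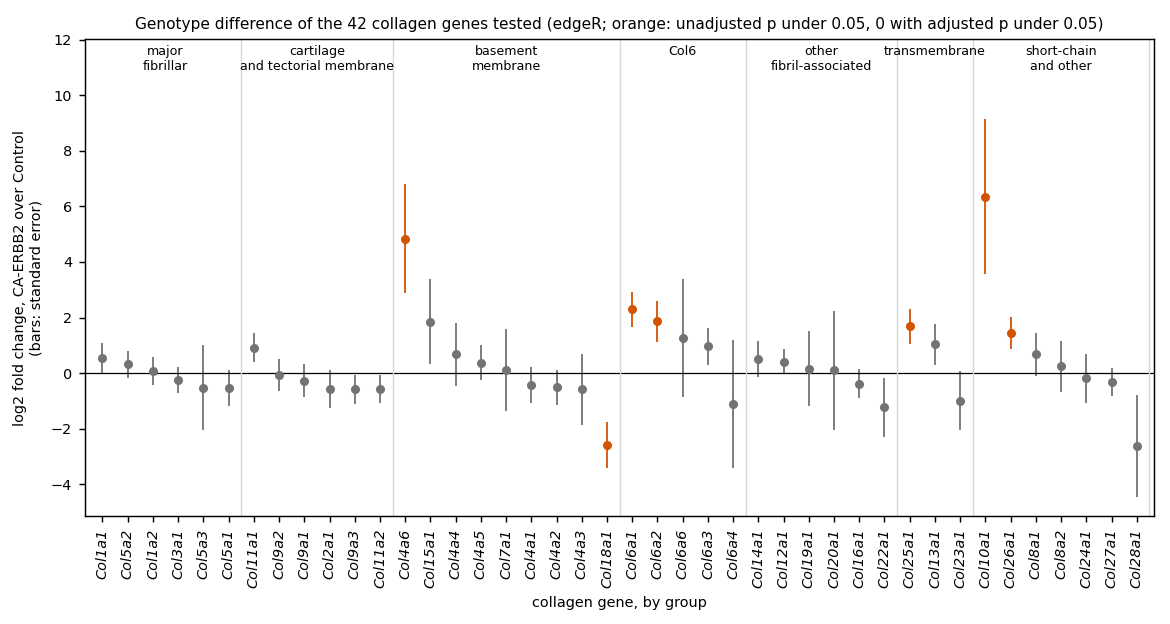
Log2 fold change of each tested collagen between CA-ERBB2 and Control with its standard error as the bar, by group, from edgeR's quasi-likelihood fit on 3 plates against 3. Orange points mark the 7 genes at an unadjusted p under 0.05, of which *Col18a1* at -2.59 is the only one below 0, and the widest bars belong to genes of low level such as *Col10a1*.

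Whether collagen levels followed the plate number in both genotypes was tested next. In a fit with genotype in the model, edgeR's quasi-likelihood test of plate number passed 0 of the 42 collagens at an adjusted p of 0.05, and 0% of all genes did. At an unadjusted p under 0.05 there were 9 of 42 collagens, where the share was 5.98% of all genes tested. Among them were *Col2a1* (unadjusted p = 0.00316 in edgeR's test), the type IX chains *Col9a1* (0.0119), *Col9a2* (0.0142) and *Col9a3* (0.0477), and *Col4a1* (0.041), while *Col1a2* had 0.0952. The others were *Col6a6*, *Col6a4*, *Col8a2* and *Col20a1*. With every cell thinned to 100000 counts (shallower cells, 2 in CA-ERBB2 and 33 in Control, cannot be thinned and were omitted), a cell of plate 1 had a median of 21 collagens in CA-ERBB2 and 18 in Control. Cells of plates 2 and 3 had medians of 8 and 7 in CA-ERBB2 and of 9 and 8 in Control. Without wells A12 to D12 the medians of all plates moved by at most 1 gene.

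The share of cells with at least 1 count of a collagen was compared in the 175 CA-ERBB2 and 144 Control cells thinned to 100000 counts. Of 38 collagens detected in at least 10 of these cells, *Col13a1* was the only one with every CA-ERBB2 plate above every Control plate, where this held for 0.929% of the 16355 genes compared, and 0 collagens had every CA-ERBB2 plate below, where this held for 0.673%. *Col13a1* was detected in 32.2, 17.2 and 15.5% of CA-ERBB2 cells by plate, against 10.2, 13.9 and 4.08% of Control cells. This corresponds to 38 of 175 and 13 of 144 cells, and the two-sided exact permutation test of 3 plates against 3 gave p = 0.1, the smallest it can give. The plates were also separated without thinning, at 29.4 ± 14.4% against 9.61 ± 5.95% (SD, n = 3 plates each), with a minimum of 10 CPM, and without wells A12 to D12. Shares without thinning and at 10 CPM include the cells under 100000 counts, 2 in CA-ERBB2 and 33 in Control, in which a collagen is more easily missed. *Col6a1* was detected in 50.9, 46.6 and 34.5% against 45.8, 19.4 and 14.3% of the cells (77 and 41 cells, exact permutation test, p = 0.2), and *Col6a2* in 54.2, 31.0 and 39.7% against 44.1, 25 and 16.3% (73 and 43 cells, exact permutation test, p = 0.3). Among all cells with at least 10 CPM of *Col6a1*, which numbered 74 in CA-ERBB2 and 41 in Control, the median level was 271 and 161 CPM. *Col2a1* was detected in 139 CA-ERBB2 and 122 Control cells, and *Col1a2* in 123 and 99 cells. Their shares per plate overlapped (exact permutation test, p = 0.7 and p = 0.9).

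Whether chains of 1 molecule were found in the same cells was described with the odds ratio of detection, computed within each plate of the 319 thinned cells and combined over plates. Cells of a plate share their library preparation and differ in the number of genes detected, and most collagen pairs had odds ratios above 1, so the values are given beside those of other pairs and carry no test. The median log2 odds ratio was 2.71 over the 17 pairs of chains of 1 molecule, 2.43 over 8 pairs that meet in 1 fibril and 1.59 over the other 678 pairs, of which 618 were above 0. Of the 17 pairs, 16 were above the median of the other pairs. Within single plates the median of the 17 pairs was between 2.27 and 3.52, and that of the other pairs between 1.12 and 2.21. The pairs of 1 fibril had medians between 1.42 and 3.22 on single plates, the lowest being on CA-ERBB2 plate 2, where the other pairs had 2.10, and their median was 2.17 beside 1.98 without both plates numbered 1.

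*Col4a3* and *Col4a4* had the highest value of all 703 pairs, at 5.27, with both in 25 cells, *Col4a3* alone in 5 and *Col4a4* alone in 25. Without wells A12 to D12 it was 4.85, with both in 16 cells. In unthinned counts it was 3.53, below *Col6a1* with *Col6a2* at 4.30, and the pair was not the highest. With the plates pooled it was 5.59, below the highest of the other pairs at 6.46. In thinned cells within plates, *Col6a1* and *Col6a2* had 4.10, with both in 89 cells and either alone in 29 and 27. *Col4a1* and *Col4a2* had 4.01, with both in 139 cells and either alone in 25 and 23. The chains of each of these pairs are neighbours in the genome. *Col4a5* and *Col4a6*, which are neighbours too, had 1.48, the lowest value of the 17 pairs. Both were in 11 cells, *Col4a5* alone in 92 and *Col4a6* alone in 4. The value was 2.55 with the plates pooled and 1.66 without wells A12 to D12, where the type I chains were lower at 2.18 and 1.64. The value for *Col6a1* and *Col6a2* was 4.14 when taken in CA-ERBB2 cells alone and 4.04 in Control. *Col11a1* and *Col11a2* had 3.74, and *Col5a1* and *Col5a2* had 3.49. Among the pairs of type IX, the values were between 2.56 and 3.05. The type I chains had only 1.85, the 300th highest of all pairs, below *Col1a2* with *Col5a2* at 3.64 and *Col1a2* with *Col3a1* at 2.67. Some pairs of chains of different molecules had values as high, among them *Col23a1* and *Col5a1* at 4.34, *Col12a1* and *Col5a2* at 4.21, and *Col16a1* and *Col3a1* at 4.15.

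**Figure D4:**
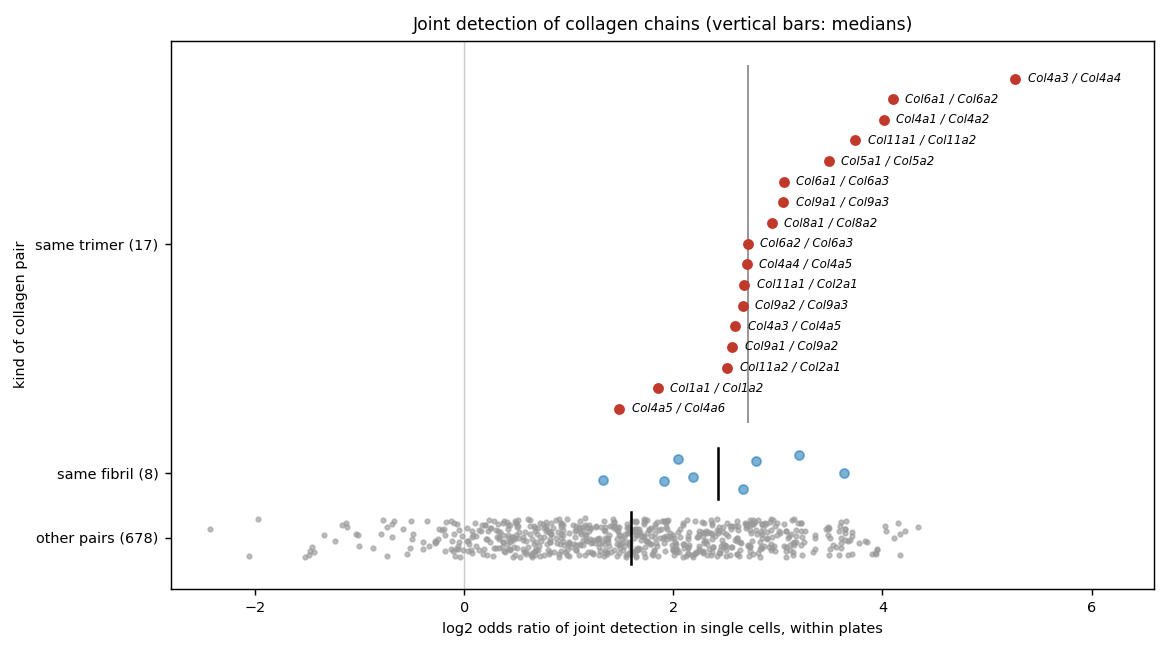
Log2 odds ratio of detection in the same cell (horizontal axis) for collagen pairs in 319 cells thinned to 100000 counts, combined over 6 plates, with 1 point per pair for the 17 pairs of 1 molecule, the 8 pairs of 1 fibril and the 678 other pairs, and the median of each kind as a line. The pairs of 1 molecule are labelled, from *Col4a3* and *Col4a4* at 5.27 down to *Col4a5* and *Col4a6* at 1.48, and the 3 medians are 2.71, 2.43 and 1.59.

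*Col7a1* stood at the other end. Its log2 odds ratio was below 0 with 20 of 37 collagens, the lowest of all pairs being that with *Col1a2* at -2.43, and the next that with *Col8a2* at -2.06 and that with *Col3a1* at -1.97. Its highest value, 2.73, was with *Col22a1*. *Col7a1* was detected in 29 of the 319 cells, of which 14 had *Col1a2* as well. Of these cells, 20 were CA-ERBB2 cells, with 30.5% of the cells of CA-ERBB2 plate 1 and at most 11.1% of any other plate.

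Cells with every chain of a molecule were then counted. All 3 type IX chains were found in 161 of the 261 cells with any of them (61.7%), and *Col2a1*, *Col11a1* and *Col11a2*, the chains of type XI (to which *Col2a1* also contributes), in 155 of 275 cells (56.4%). *Col4a1* and *Col4a2* were both found in 139 of 187 cells (74.3%), the highest share. Both type V chains examined were found in 105 of 171 cells (61.4%) and both type I chains in 102 of 237 cells (43%). *Col6a1*, *Col6a2* and *Col6a3* were found together in 64 of 169 cells (37.9%), and both type VIII chains in 43 of 110 cells (39.1%). *Col4a3*, *Col4a4* and *Col4a5* were found together in 21 of 119 cells (17.6%). Without wells A12 to D12 the share was 30.6% for type VI and 12% for *Col4a3*, *Col4a4* and *Col4a5*, and those of the other molecules named here were lower by at most 4 percentage points. The complete set for type VI was found in 37.3, 13.8 and 20.7% of CA-ERBB2 cells by plate, against 27.1, 5.56 and 8.16% of Control cells. The difference of 10.3 percentage points had p = 0.4 in the two-sided exact permutation test, and over the 9 molecules this p was between 0.4 and 0.9. In SMART-Seq counts at this depth, a chain without a count may still be present in the cell.

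In type I, *Col1a1*, whose chain most type I molecules hold in excess, was detected in fewer cells than *Col1a2*. Of 238 cells with at least 10 CPM of either gene, 98 had both, 130 had *Col1a2* alone and 10 had *Col1a1* alone. *Col1a2* reached 100 CPM with no count of *Col1a1* in 72 cells, between 6 and 17 on each plate. In the 98 cells with both, the median log2 ratio of *Col1a1* to *Col1a2* was -2.42, it was between -4.17 and -1.23 on the single plates, and *Col1a1* was the higher in 12 cells. These ratios compare reads and not reads per length, and per kilobase *Col1a2* was also the higher gene over all plates, as given with the order of levels.

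Which cell types the collagens went with was described by the same odds ratio between each of the 38 collagens and the markers of 11 cell types, as the median over a type's markers. Here the odds ratio was computed in the 295 thinned cells outside wells A12 to D12, with markers detected in at least 10 thinned cells. This left out *Dpt*, *Insm1*, *Tie1*, *Matn3* and *Snorc*, so that the chondrocyte list was *Acan*, *Cnmd* and *Hapln1*. The highest median belonged to the markers of otic mesenchyme and fibroblasts in 19 collagens, to epithelium in 6, to Schwann cells and glia in 3, to chondrocytes in 3, to hair cells, macrophages and osteoblasts in 2 each, and to supporting cells in 1. *Col5a2* and *Col26a1* had medians of 3.35 each with the markers of mesenchyme, against -1.82 and -1.49 with the epithelial markers. *Col16a1*, *Col25a1*, *Col1a2* and *Col3a1* followed the same order, with 3.17, 3.13, 2.83 and 2.68 against -1.26, -1.56, -1.52 and -2.11. At the epithelial end, *Col7a1* had 4.00 with epithelium and -1.47 with mesenchyme, and *Col22a1* had 3.37 and -0.91. *Col4a3* had 2.97 with the markers of Deiters and pillar cells and 2.95 with epithelium, and *Col4a4* had 2.35 with epithelium.

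Of the collagens of the tectorial membrane, *Col9a3* and *Col9a2* had their highest medians with epithelium (2.00 and 1.51). *Col9a1* had 1.20 with epithelium and 1.22 with mesenchyme, and *Col2a1* had 0.59 and 1.39. *Col11a1* had 1.59 and 1.83. *Col6a1* had 2.73 with the markers of osteoblasts and also 2.73 with those of chondrocytes, 2.33 with mesenchyme and -1.10 with epithelium. *Col1a1* and *Col13a1* had their highest medians with osteoblasts, at 2.72 and 2.59. The summed level of the 6 osteoblast markers was between 177 and 811 CPM in CA-ERBB2 and between 180 and 543 CPM in Control, and of the 5 chondrocyte markers between 221 and 574 and between 227 and 983 CPM. The mesenchymal markers summed to between 6347 and 10231 CPM in CA-ERBB2 and between 4718 and 16453 CPM in Control. All these sums are without TMM factors. Of the mesenchymal sum, *Otor* alone made up between 4637 and 7552 CPM in CA-ERBB2 and between 2525 and 14469 CPM in Control. No marker of the osteoblast, chondrocyte and mesenchyme lists was at 0 over all cells. Within the lists, 2 of 6 osteoblast markers (*Bglap2*, log2 fold change 5.38, and *Bglap*, 4.93) and 2 of 4 chondrocyte markers tested (*Hapln1*, 4.75, and *Acan*, 1.92) were higher in CA-ERBB2 cells at an unadjusted p under 0.05, and *Postn* of the mesenchyme list was lower (-1.22), where 2.77% of all genes tested were higher and 2.39% lower. *Cnmd*, the most abundant chondrocyte marker, had a log2 fold change of -1.12 (unadjusted p = 0.0862 in edgeR's test). The osteoblast markers *Alpl* and *Runx2* had -0.61 and -0.09, while *Sp7* and *Ibsp* had 1.41 and 1.11. The median was 1.26 over the osteoblast list, with 4 of 6 tested markers above 0. It was 1.13 for chondrocytes (3 of 4 above 0) and 0.0731 for mesenchyme (5 of 9 above 0). The paper reports *Bglap* and *Bglap2* as raised in CA-ERBB2 cells of a cluster made of CA-ERBB2 cells only. The osteoblast medians therefore cannot tell osteoblasts from CA-ERBB2 cells that express these genes. The part of these cell types, or of such cells, in the *Col6* difference was not tested.

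**Figure D5:**
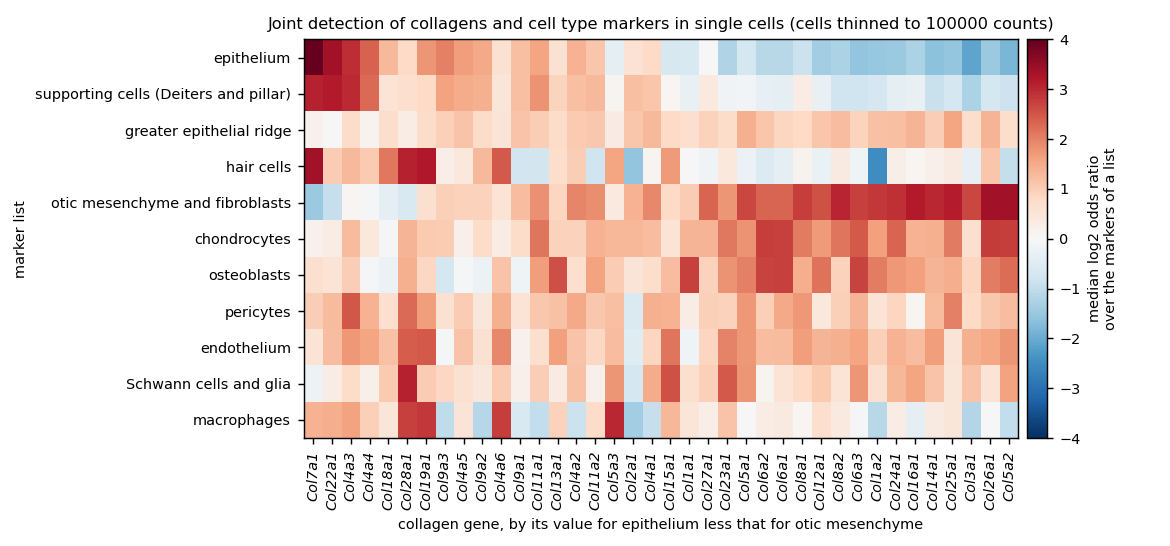
Heat map of the median log2 odds ratio of joint detection (colour, from -4 in blue to 4 in red) between each of 38 collagens (columns, sorted by the value for epithelium less that for otic mesenchyme) and the markers of each of 11 cell types (rows). The cells were the 295 thinned cells outside wells A12 to D12, and the markers those detected in at least 10 thinned cells. The columns run from *Col7a1* at 4.00 with epithelium and -1.47 with mesenchyme at the left to genes such as *Col5a2* at -1.82 and 3.35 at the right.

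The genes that modify, export, cut, cross-link and bind collagen were examined as 8 lists with 65 genes. In edgeR's quasi-likelihood test 0 of the 62 tested were called, and at an unadjusted p under 0.05 there were 5 higher and 3 lower genes, with a median log2 fold change of -0.14 and 28 above 0. Over all genes tested, 2.77% were higher and 2.39% lower at this p, and 49.2% were above 0. The count of 8 was 9 by DESeq2 and 1 by limma, and it was 5 without CA-ERBB2 plate 2 and 3 without Control plate 3. Among 13 genes of chain hydroxylation, *Plod3*, a lysyl hydroxylase, was the 1 higher gene, with 130, 84.5 and 87.0 CPM against 59.7, 19.0 and 38.2 CPM (log2 fold change 1.37, SE 0.572). Among 5 cross-linking genes it was *Lox*, lysyl oxidase, with 111, 186 and 88.7 CPM against 73.9, 27.3 and 49.6 CPM (1.35, SE 0.563). In both, every CA-ERBB2 plate was above every Control plate. Of the 10 genes of glycosylation, folding and export, 0 reached this p, and *Serpinh1*, the collagen chaperone, had 219, 320.2 and 257 CPM against 254, 197 and 239 CPM.

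Among 7 receptors, *Ddr2*, a receptor tyrosine kinase for fibrillar collagen, was the 1 higher gene (log2 fold change 1.50, SE 0.62). Of 6 collagen-cleaving proteases tested, *Mmp9* and *Ctsk* were higher. *Mmp9* had 404, 4081 and 5831 CPM against 21.5, 124 and 127 CPM (5.24, SE 1.07, unadjusted p = 0.000545, adjusted p = 0.653 in edgeR's test). *Pcolce2*, which speeds the removal of propeptides, was the 1 lower gene of 8 in its list, with 27.9, 23.9 and 7.6 CPM against 44.4, 42.8 and 197 CPM (-2.26, SE 0.786). Of 8 collagen-binding proteoglycans *Fmod* was lower (-2.77, SE 1.15), while *Lum*, the most abundant, had 689, 1591 and 3375 against 666, 1537 and 758 CPM. All 5 tectorial membrane glycoproteins tested had log2 fold changes below 0, with a median of -1.38. Of these, *Otoa* had an unadjusted p of 0.0428 in edgeR's test (-3.74, SE 1.62). It had 7.23, 2.88 and 0.0665 CPM against 124, 2.42 and 10.2 CPM, so the plates overlapped and Control plate 1 was far above the rest. *Tectb*, the most abundant, had 521, 464 and 1536 CPM against 1947, 1284 and 2843 CPM (-1.27, SE 0.61, unadjusted p = 0.0632 in edgeR's test). The fold changes of the cartilage and tectorial membrane collagens had a median of -0.42. *Tectb* was also in the marker list of the greater epithelial ridge. The 10 markers of that list had a median log2 fold change of -0.83, with 3 above 0. The part of the mix of cells in these lower values was not tested.

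In the 36 CA-ERBB2 cells (3, 14 and 19 by plate) in which *Dmp1*, *Mmp9*, *Timp1* and *Spp1* were all at 100 CPM or higher, *Col6a1* had at least 10 CPM in 31 cells and *Col1a1* in 28, against 43 and 35 of the other 141 CA-ERBB2 cells and 41 and 45 of 177 Control cells, without a test, since cells are not replicates. On CA-ERBB2 plates 2 and 3 alone, *Col6a1* had this level in 28 of 33 such cells and 17 of the other 85, *Col1a1* in 25 and 17, and *Col9a3* in 9 and 35. Of all 177 cells per genotype, 2 CA-ERBB2 and 33 Control cells had under 100000 counts, and a collagen is more easily missed in them.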

How the data were processed

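The plate was the unit of replication. RNA of single cells was copied with SMART-Seq Single PLUS after a sort for GFP with scatter gates, and no doublet caller was run. Per the labels and the study's methods, the authors mapped the reads to GRCm38 (Gencode M25) with STAR 2.7.6a and counted them with featureCounts (Subread 2.0.1) by strand. The values they deposited are raw counts, not normalized, of each gene in each cell, and every column was mapped to a sample. The study's results mention UMI counts but its methods name no molecular identifiers, and the values were taken as read counts. Whether the kit marks strand is not given in the sources used here.

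Counts were summed per plate, filtered with filterByExpr, scaled with TMM (factors 0.688 to 1.325) and tested with edgeR 4.0.16 (quasi-likelihood, Benjamini-Hochberg over 21416 genes) in R 4.3.3. A plate was taken as 1 of the study's FACS experiments, which the sample names do not state, and cells were summed whatever their depth. DESeq2 1.42.0, limma 3.58.1 on mean log2(CPM + 1) over cells, no filter, the plate number as a block, filters on cells and wells, no TMM factors and each plate left out were alternatives, and leaving out both plates numbered 1 was added after seeing the data. Detection meant 1 count after each cell was thinned to 100000 counts, and cells under that depth were left out (2 CA-ERBB2, 33 Control). Odds ratios were Mantel-Haenszel estimates over plates with 0.5 added to each entry. The edgeR test on plate sums was tried on simulated counts, and the thinning, permutation tests and odds ratios were not. Gene coordinates came from Gencode M21 (GRCm38), and lengths were of merged exons.

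The collagens, groups, pairs, marker lists and pathway lists were chosen with earlier results of these data known. Collagens with a mean of at least 10 CPM, those at an unadjusted p under 0.05 and those with separate plates were given with every plate, and the others by their range. Of other lists, the genes at an unadjusted p under 0.05 (at most 3 per list) and the most abundant gene of a list discussed were named.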

Additional observations from a re-analysis of the deposited data

How the results depend on the processing

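No collagen was called by genotype in any of the fits run. The number of collagens at an unadjusted p under 0.05, 7, was 4 without wells A12 to D12 and 0 with limma, and it was between 2 and 9 with 1 plate left out. For the pathway genes the number, 8, was 15 with no filter, 5 without wells A12 to D12, 1 with limma, 5 without the plates numbered 1, and between 3 and 9 with 1 plate left out. Collagens with separate plates numbered 2, and 4 without TMM factors and 6 with the filter on cells. They numbered 20 without the plates numbered 1 and between 5 and 14 with 1 plate left out, where fewer plates are separated more easily. The share of all genes tested, at this p or with separate plates, was taken in the main setting only. The counts in the other settings are therefore no result about collagens. The log2 ratio of the major fibrillar sum was 0.05, and -0.22 without TMM factors. That of the transmembrane sum was 1.25, and 0.70 with the mean over cells of CPM and 1.79 without the plates numbered 1. The median log2 odds ratio of pairs of 1 molecule was 2.71, and 3.37 unthinned, 3.2 at 10 CPM or more, 3.48 with the plates pooled, 3.19 without the plates numbered 1 and 2.41 without wells A12 to D12. The other pairs had 1.93, 1.85, 2.13, 1.98 and 1.28 in the same settings. The cause of these moves was not tested.

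Plates with the same number were correlated in their deviations from the genotype means at 0.246, 0.0624 and 0.0393 for plates 1, 2 and 3. Between plates of unlike number the correlation was between -0.129 and 0.0512. Since 2 of the 3 values for the same number are under 0.1, the plates were not treated as paired in the main fit. This does not show that the plates numbered 1 are unrelated. With the number as a replicate block, 5 collagens had an unadjusted p under 0.05 and 0 were called. Of 438 single-gene alternatives for 34 named collagens, 380 kept their direction and side of this p, 28 lost it, 6 gained it and 24 changed sign. Those that changed sign without a plate being left out had log2 fold changes of 0.33 for *Col2a1*, 0.61 for *Col4a1*, 0.38 for *Col4a2*, 0.16 for *Col5a1*, 0.22 for *Col24a1* and -0.063 for *Col4a4* with limma. With the filter on cells they were 0.013 for *Col9a2*, -0.19 for *Col4a5* and -0.74 for *Col4a4*, and with the block -0.26 for *Col8a2*. With 1 plate left out, the log2 fold change ranged from -1.27 to 0.085 for *Col2a1*, -0.66 to 0.022 for *Col9a1*, -0.13 to 0.42 for *Col1a2*, -0.51 to 0.37 for *Col9a2*, -0.44 to 0.80 for *Col8a2*, -1.22 to 0.99 for *Col24a1*, -0.51 to 2.85 for *Col15a1*, -0.65 to 1.13 for *Col4a4* and -1.17 to 0.92 for *Col4a3*. DESeq2 gave no p for *Col4a6* and *Col10a1*.

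Depth limits the genes of low level. Of the 354 cells, 35 had under 100000 counts. A single cell held 78.5% of the counts of *Col4a6*, and a different cell held 83.9% of those of *Col10a1*.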
